A study of Sus scrofa with 55 samples.

Results

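Oocytes of antral follicle stage 3 were compared with oocytes of stage 2, the stage before it, in the ovaries of 4 gilts (young female pigs, Sus scrofa). All oocytes labelled with either stage were used, 11 at stage 3 and 12 at stage 2, or 23 of the 55 oocytes whose counts were read. Each library held the cytoplasmic RNA of a single oocyte, turned into full-length cDNA by Smart-seq2 after the genomic DNA had been spun off, with 16 PCR cycles. Both groups were wild type, came from the same Landrace and Yorkshire gilts aged 208 to 210 days, and shared 1 treatment: pregnant mare serum gonadotropin (5 IU), a hormone that drives follicle growth, 48 h before the ovaries were taken. Gilt 201 gave 3 oocytes of stage 2 and 4 of stage 3, gilt 205 gave 1 and 2, gilt 801 gave 4 and 1, and gilt 803 gave 4 and 4. The labels number the stages and name the animal; the follicle size behind a stage number is not given in the sources used here. Within a gilt, the counts of all oocytes of a stage were added up, so that the gilt is the replicate (n = 4) and each gilt is compared with itself.

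An antral follicle holds an oocyte inside a layer of cumulus cells, a fluid-filled cavity and a wall of mural granulosa and theca cells. The oocyte in it is arrested in meiotic prophase and finishes storing the mRNA and proteins that later carry it through meiosis and early cleavage. It makes the zona pellucida around itself and secretes the growth factors GDF9 and BMP15, which act on the granulosa cells. In mammals the oocyte is poor at glycolysis, and the cumulus cells pass it pyruvate, other metabolites and cAMP or cGMP through projections that cross the zona and end in gap junctions.

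The libraries carried oocyte RNA: ZP2, ZP3 and ZP4 (zona proteins), GDF9 and BMP15 had counts in all 12 oocytes of stage 2 and all 11 of stage 3. Other oocyte markers were missing from some libraries. OOEP and ZAR1 had counts in 10 of 12 oocytes at stage 2 and 11 of 11 at stage 3. FIGLA had counts in 8 of 12 and 8 of 11, and DDX4 in 4 of 12 and 6 of 11. At stage 2 the oocyte libraries held 151104 to 30486613 counts (median 11519013), and at stage 3 they held 6144008 to 26202787 (median 13661687). The mitochondrially encoded share of the counts ran from 2.1 to 90.2% at stage 2 and from 2.28 to 86.3% at stage 3. Over gilts that share was 61.1 ± 34.5% at stage 2 and 59.3 ± 26.2% at stage 3 (SD, n = 4), lower at stage 3 in 2 of 4 gilts (exact sign-flip permutation test over gilts, two-sided p = 0.875). Genes with a count at an equal depth of 1109755 counts, which 22 of the 23 oocytes reached, averaged 7367 ± 578 and 7787 ± 2621 (exact permutation p = 0.875). The log10 total averaged 6.93 ± 0.566 and 7.16 ± 0.0968 (exact permutation p = 0.875); 4 gilts cannot give a p under 0.125 in this test. A gene with 0 counts in an oocyte could still have reached the level of 3 counts, which was 0.0984 to 19.9 CPM at stage 2 and 0.114 to 0.488 CPM at stage 3 (CPM, the usual unit of counts scaled to library depth). Oocyte markers were near absent in some libraries: the lowest ZP2 level was 3.9 CPM at stage 2 and 1.22 CPM at stage 3.

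The level of granulosa markers was the only one of these library measures that went the same way in all 4 gilts. Their summed level was 43.1 to 12162 CPM with a median of 151 at stage 2, and 38.1 to 29141 CPM with a median of 291 at stage 3. A total of 5 oocytes lay above 2000 CPM, at 5028 CPM or more, and the other 18 at or below 768 CPM. Stage 2 held 1 of the 5, gilt 803 oocyte 2 at 12162 CPM, and stage 3 held 4, gilt 801 oocyte 1 at 11171 CPM and gilt 803 oocytes 1, 2 and 3 at 5028, 29141 and 7773 CPM. The mean of log2(CPM + 1) over the oocytes of a gilt was 7.28, 7.29, 6.7 and 9.16 at stage 2 in gilts 201, 205, 801 and 803, and 7.32, 8.65, 13.4 and 11.7 at stage 3. It was higher at stage 3 in 4 of 4 gilts, by 2.68 on average, with the smallest p that the exact permutation test can give (0.125). Of the defining granulosa genes, AMH (anti-Müllerian hormone) was at 0 in all 23 oocytes, and FSHR (the FSH receptor) had counts in 5 of 12 and 5 of 11. In a library from 1 oocyte, RNA of attached somatic cells and RNA of the oocyte itself cannot be told apart. The main gene results below are therefore given for all oocytes and again without the 5 libraries above 2000 CPM, a choice made after these levels were seen, which leaves 11 oocytes of stage 2 and 7 of stage 3 and removes the only stage 3 oocyte of gilt 801. Gilt 803 then rests on oocyte 4 alone at stage 3, with a mitochondrial share of 71.0%. At stage 2 it rests on oocytes 1, 3 and 4, of 1109755, 1932026 and 151104 counts. Their mitochondrial shares were 3.71, 29.8 and 7.85%, so the smaller set is unbalanced in other ways.

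**Figure D1:**
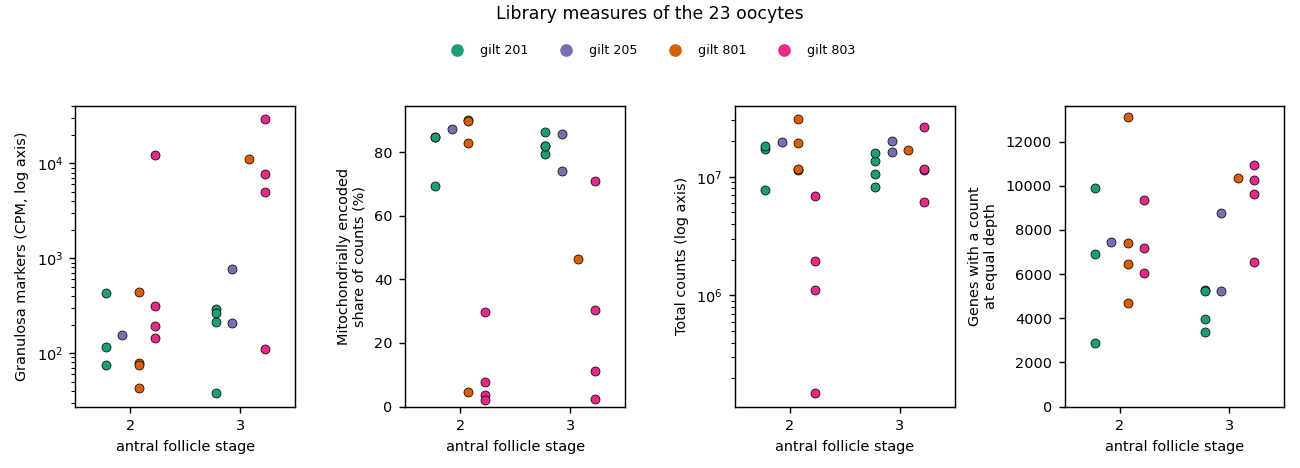
Each point is 1 oocyte, placed by follicle stage (x axis) and coloured by gilt; the panels show the summed CPM of granulosa markers (log axis), the mitochondrially encoded share of counts in percent, total counts (log axis) and the genes with a count after thinning to 1109755 counts. In the first panel 1 oocyte of stage 2 and 4 of stage 3 lie above 2000 CPM while the other 18 lie at or below 768 CPM; in the other panels the stages overlap.

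Over 15637 genes tested, edgeR's quasi-likelihood test with gilt in the model called 0 genes at a Benjamini-Hochberg adjusted p under 0.05 (percent called 0). At an unadjusted p under 0.05 there were 728 genes (4.66%), 412 higher at stage 3 (2.63%) and 316 lower (2.02%). On the same sums DESeq2 called 311 of the 15637 genes, 141 higher and 170 lower, and limma-trend called 2. The fit without a low-count filter called 29 of 23035 genes, 27 of them higher. Leaving out gilt 803 gave 7 calls, all higher: COX4I2, CTSV, ST3GAL4, SPHK1, CDH2, ID2 and an ID without a symbol; SPHK1 (sphingosine kinase) was named after its values were seen. The spread between animals was wide, with a common biological coefficient of variation of 1.24. The median standard error of a log2 change was 1.66 over all genes and 0.935 over those of at least 10 CPM, with or without a symbol. Both a symbol and at least 10 CPM were found for 5189 genes. The median log2 change of all genes was 0.17, and 54.9% were fitted higher at stage 3. Within gilts, 821 genes (5.25%) were higher at stage 3 in each of the 4 animals and 575 (3.68%) were lower in each. In 75 genes (0.480%) all 4 levels of stage 3 lay above all 4 of stage 2, and in 109 (0.697%) below. Since no gene passed edgeR's test, the genes below are described by their values; unless another value is printed, their edgeR adjusted p was 0.995 or above. Of the 20 genes in the plot of levels by gilt, DESeq2 called all but MIF and CD83. Those genes had been picked for a small edgeR p on the same sums, so the DESeq2 calls are not separate support. Without the granulosa-high libraries the edgeR adjusted p was 0.877 for COX4I2 and for C1QC, a complement gene, and 1 for the other genes whose change without those libraries is printed.

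The gene with the smallest p was COX4I2, an isoform of subunit 4 of cytochrome c oxidase that in other mammals is best known from lung and from oxygen-sensing cells. Its level (CPM of the sums, scaled by TMM) was 0, 0, 0 and 3.54 CPM at stage 2 in gilts 201, 205, 801 and 803, and 49.4, 7.89, 132 and 192 CPM at stage 3. Every gilt was higher at stage 3, and the lowest stage 3 level lay above the highest stage 2 level. The fitted log2 change was 10.80 ± 1.99 (SE; edgeR unadjusted p = 1.06e-05, adjusted p = 0.165), a size that depends on how the zero counts of 3 gilts are handled; limma-trend gave 9.69 with an adjusted p of 0.0404, and edgeR without gilt 803 gave 14.93 with an adjusted p of 0.00499. In single oocytes it had counts in 2 of 12 at stage 2 and 8 of 11 at stage 3, and after thinning to 1109755 counts in 2 of 11 and 8 of 11. Among the 18 oocytes low in granulosa markers it was found in 1 of 11 at stage 2, at 0.901 CPM in gilt 803, and in 4 of 7 at stage 3. Those 4 held 11.6 and 30.4 CPM in gilt 201, 9.24 CPM in gilt 205 and 0.609 CPM in gilt 803. Gilt 801 had no such oocyte at stage 3. Without the 5 granulosa-high libraries the fitted change was 12.77 ± 3.25 (edgeR unadjusted p = 0.000232, adjusted p = 0.877). COX4I1, the common isoform of the same subunit, was 62.2 ± 28.8 CPM at stage 2 and 98.5 ± 64.1 CPM at stage 3 (SD, n = 4), a log2 change of 0.64 ± 0.64 that turned to -0.51 ± 1.00 without those libraries.

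ACSBG1, an acyl-CoA synthetase that activates long-chain fatty acids, came next. It stood at 0, 0, 0.689 and 0 CPM at stage 2 in gilts 201, 205, 801 and 803, and at 6.15, 8.41, 59.4 and 94 CPM at stage 3. The groups did not overlap, and the levels of gilts 801 and 803 at stage 3 were several times those of gilts 201 and 205. Its log2 change was 8.27 ± 1.65 (edgeR adjusted p = 0.257), and limma-trend gave 9.0 with an adjusted p of 0.0404. The 4 granulosa-high oocytes of stage 3 held 52.7 to 220.4 CPM, whereas the 7 others held at most 9.61 CPM, and the granulosa-high oocyte of stage 2 held 0. Without those libraries the change was 6.77 ± 3.00.

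MSRB2, MYLK and SDHD were also higher at stage 3 in every gilt with no overlap of the levels, and their fitted changes were as large without the granulosa-high libraries. Within stage 3, though, the 4 granulosa-high oocytes held the highest values of each gene. MSRB2 was at 66.1 to 125 CPM in them, MYLK at 52.8 to 168 CPM and SDHD at 83.3 to 244 CPM. In the 7 other oocytes of stage 3 they reached at most 31.2, 28.5 and 66.2 CPM, all in gilts 201 and 205. The medians of those 7 were 2.60, 2.52 and 3.04 CPM, against 0, 0.386 and 1.08 CPM in the 11 others of stage 2. Gilt 803 oocyte 4, the only one of its stage 3 oocytes left, held 0.696, 2.52 and 3.04 CPM. Gilt 801 had no stage 3 oocyte left, so the refitted changes rested mostly on a few oocytes of gilts 201 and 205. MSRB2, which repairs oxidised methionine in mitochondria, was at 0.195, 2.66, 1.56 and 6.66 CPM at stage 2 in gilts 201, 205, 801 and 803 and at 21.1, 29.4, 42.2 and 43.4 CPM at stage 3. Its log2 change was 4.04 ± 1.2 with all oocytes and 4.72 ± 2.24 without those libraries. MYLK, the kinase of the myosin light chain, was at 3.12, 0.725, 6.55 and 20.2 CPM and 50.9, 25.5, 37.6 and 37.3 CPM, a change of 2.88 ± 0.93, or 3.66 ± 1.60 without those libraries. SDHD, a membrane anchor of succinate dehydrogenase (respiratory complex II), was at 12, 2.54, 26.1 and 11.7 CPM and 114, 38.7, 62.9 and 59.5 CPM, a change of 2.57 ± 0.91, or 2.67 ± 1.35. For all of these genes the libraries still differed widely within a stage: MSRB2 ran from 0 to 125 CPM with a median of 14.9 in the 11 oocytes of stage 3, and had counts in 9 of them, against 4 of 12 at stage 2. ACTG2, a smooth muscle actin that shares most of its coding sequence with other actins, was 0.283 ± 0.505 CPM at stage 2 and 18.4 ± 9.84 CPM at stage 3 (SD, n = 4; log2 change 7.25 ± 1.80, or 5.48 ± 3.07 without the granulosa-high libraries), from 5 of the 11 oocytes of stage 3; the sources used here do not say how reads shared between actin genes were counted.

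**Figure D2:**
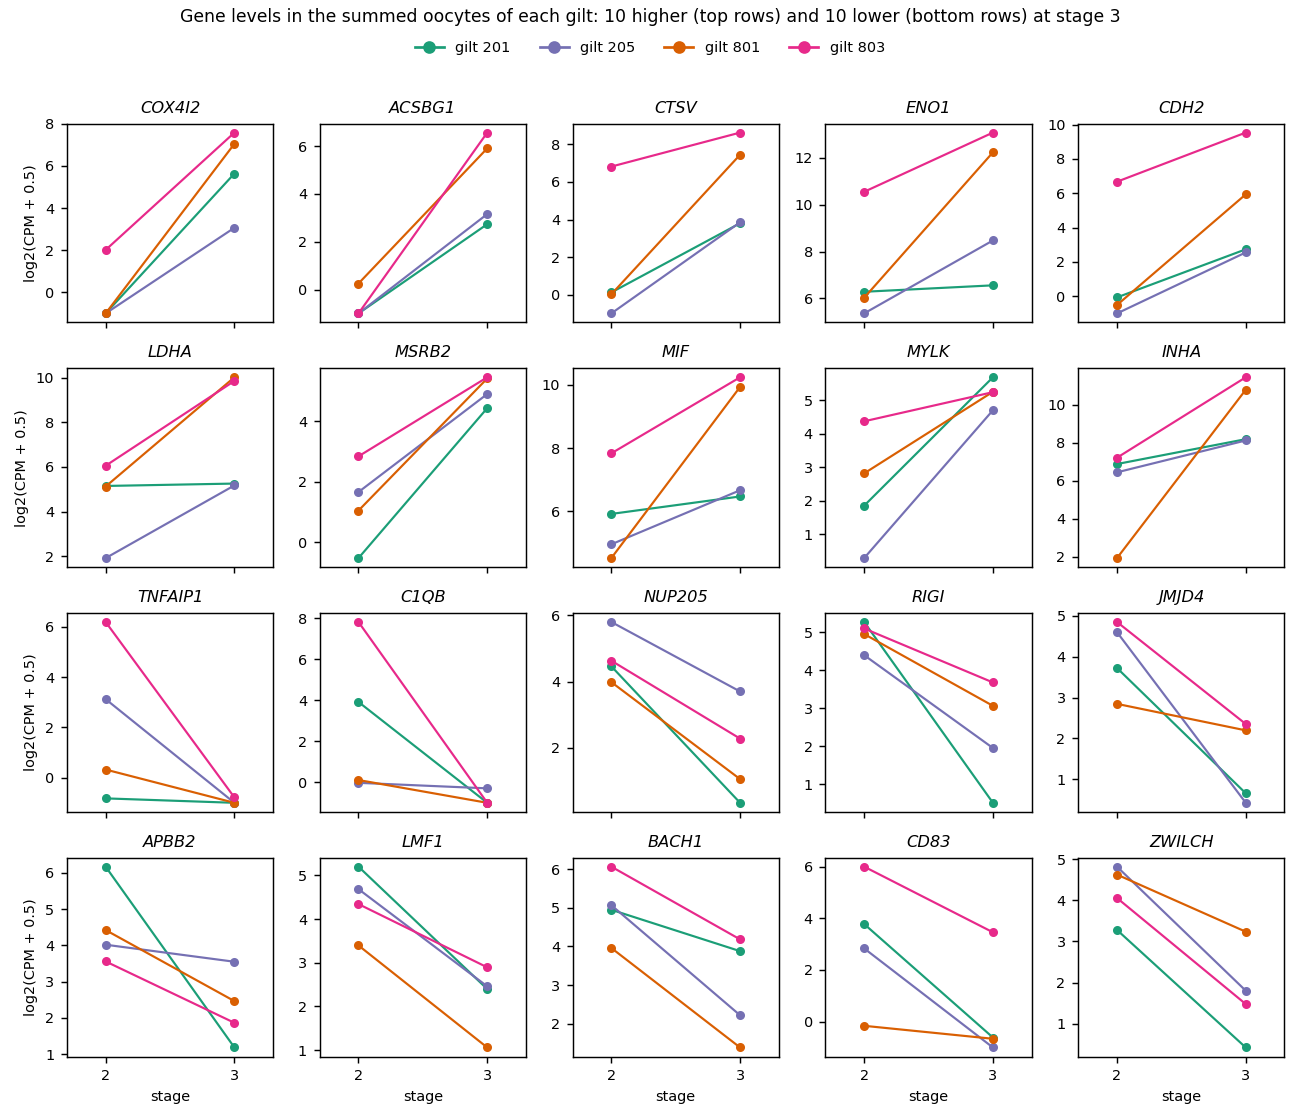
Levels of 20 genes on the log2(CPM + 0.5) scale (y axis, TMM-scaled CPM of the summed oocytes) at stages 2 and 3 (x axis), with 1 line per gilt: the 10 genes higher and the 10 lower at stage 3 with the smallest p among genes of at least 10 CPM that moved the same way in all 4 gilts. The line of gilt 801 climbs most in ENO1, LDHA, MIF and INHA, while all 4 lines climb in COX4I2, MSRB2 and MYLK; since the genes were picked for one direction, the shared slope is part of the choice.

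Among the metabolic lists, glycolysis had the largest median change and the most members with a small p. Of 35 genes of glycolysis and the pentose phosphate pathway, 30 were tested; 27 had a fitted change above 0, 8 of them at an unadjusted p under 0.05, none was lower at that level (over all genes tested, 54.9% were fitted above 0 and 2.63% were higher at that p), and the median change was 1.29 against 0.17 for all genes. ENO1 (enolase) was at 77.5, 40.6, 64.7 and 1500.4 CPM at stage 2 in gilts 201, 205, 801 and 803 and at 93.8, 355, 4827 and 8658 CPM at stage 3. Within gilts its log2 change was 0.27, 3.11, 6.21 and 2.53, so that gilt 201 was nearly level, and the fitted change was 3.71 ± 1.04. LDHA (lactate dehydrogenase) was at 34.9, 3.26, 34.3 and 65.9 CPM and 37.7, 35.5, 1037 and 926 CPM, a change of 3.42 ± 1.01. PGK1 (phosphoglycerate kinase) was 16 ± 27 CPM at stage 2 and 234 ± 250.4 CPM at stage 3, a change of 5.38 ± 1.52, and higher in 3 of 4 gilts.

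The glycolytic genes were high in the granulosa-high libraries, whose part in the difference was not tested beyond leaving them out. In those of stage 3, ENO1 was at 7585 to 20544 CPM, and in that of stage 2 at 5558 CPM. The 7 other oocytes of stage 3 had a median of 54.2 CPM and at most 277 CPM, and the 11 others of stage 2 a median of 80.1 CPM. Without the granulosa-high libraries the changes were 0.36 ± 1.23 for ENO1, -0.17 ± 1.32 for LDHA and 3.07 ± 3.51 for PGK1, and the pathway's median was -0.10 with 14 of 30 members higher. In gilts 201 and 205 alone, which hold no granulosa-high library, the pathway's median was 0.73, with ENO1 at 2.49 ± 0.99, LDHA at 1.38 ± 1.17 and PGK1 at 6.79 ± 1.98. The median within gilts 201, 205, 801 and 803 was 0.25, 0.50, 1.08 and 1.93. MIF, a secreted cytokine, was at 59.8, 30.4, 22.4 and 227 CPM at stage 2 and 87.9, 101, 977 and 1208 CPM at stage 3, a change of 2.94 ± 0.94 with all oocytes and 0.23 ± 1.02 without those libraries. The summed glycolytic level of single oocytes ran from 155 to 15710.2 CPM at stage 2 and from 168 to 51809 CPM at stage 3. At stage 2 it was also high in 3 oocytes of gilt 803 with few granulosa counts, at 7289, 6200.2 and 13593 CPM, whose totals were 1109755, 1932026 and 151104 counts.

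The granulosa genes themselves are the hormone and adhesion genes that mark the follicle wall. Of 25 markers 19 were tested and 14 had a change above 0, with a median of 2.87. At an unadjusted edgeR p under 0.05, 7 were higher and 1 was lower. Among all genes tested, 54.9% had a change above 0, 2.63% were higher at that p and 2.02% lower. INHA, the alpha subunit of inhibin, was at 117, 86.3, 3.31 and 147 CPM at stage 2 in gilts 201, 205, 801 and 803 and at 290.1, 277, 1759.9 and 2771 CPM at stage 3. All 4 stage 3 levels lay above all 4 of stage 2, by 3.87 ± 1.28 on the log2 scale. INHBA, the beta A subunit of inhibin and activin, was at 23.7, 33.5, 0.83 and 93.5 CPM and 26.7, 61.6, 283 and 648 CPM, a change of 3.03 ± 1.05. CDH2 (N-cadherin), which joins granulosa cells to each other and to the oocyte, was 25.5 ± 50.5 CPM at stage 2 and 203 ± 358 CPM at stage 3 (SD, n = 4), a change of 4.74 ± 1.34. Without the granulosa-high libraries the median of the list was 0.64. INHA then stood at 1.96 ± 1.03, INHBA at -0.02 ± 1.25 and CDH2 at 3.63 ± 2.61; the libraries had been set aside by these same genes, so the drop is built in. CTSV, a lysosomal cathepsin, and ST3GAL4, a sialyltransferase, had their highest oocyte values in the same libraries, at 1249.6 and 1821 CPM, with changes of 5.20 ± 1.43 and 5.32 ± 1.44, which were 3.5 ± 2.34 and 2.45 ± 4.87 without them.

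**Figure D3:**
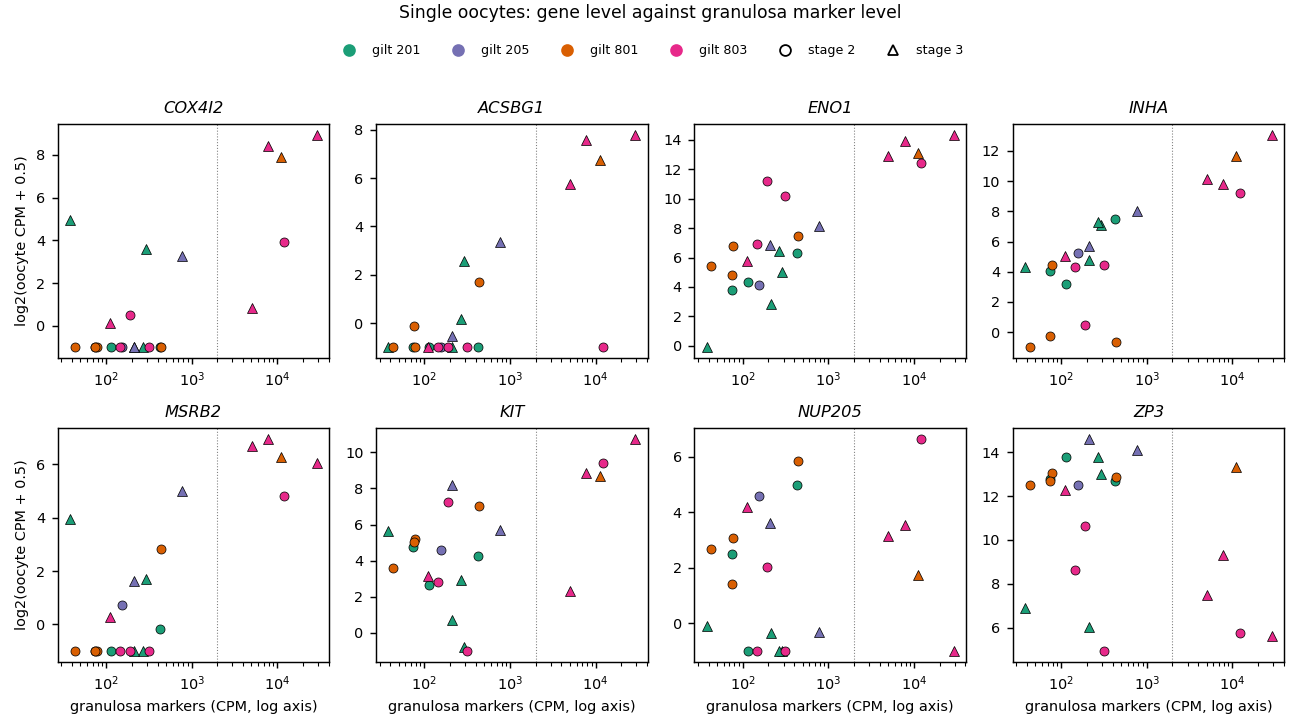
Each point is 1 oocyte (circles stage 2, triangles stage 3, coloured by gilt); the x axis is the summed granulosa marker level in CPM (log axis) and the y axis the gene's log2(CPM + 0.5), with a dotted line at 2000 granulosa CPM. ENO1 and INHA are highest in the 5 oocytes to the right of the line. COX4I2 and MSRB2 have counts in triangles on both sides. They reach 30.4 and 31.2 CPM to the left and 491 and 125 CPM to the right. NUP205 and ZP3 are not high in the triangles to the right, apart from ZP3 in gilt 801.

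The medians of the lists for other cells of the follicle changed sign between choices of libraries. Of the cumulus expansion genes, which the cumulus switches on near ovulation, 9 of 13 tested were fitted higher, against 54.9% of all genes tested. Their median was 0.68, or -1.74 without the granulosa-high libraries. TNFAIP6, a hyaluronan-binding protein, had 2 counts over all stage 2 oocytes and 38340 at stage 3, nearly all in 1 granulosa-high oocyte of gilt 803, and PTX3, another matrix gene, stayed at or below 0.174 CPM in every oocyte. Theca and stroma markers were higher in 11 of 21, with a median of 0.15, or -0.15 without those libraries, and CYP17A1, the theca enzyme of androgen synthesis, had counts in 2 of 12 and 1 of 11 oocytes. Blood, immune and endothelial markers were higher in 11 of 21, with a median of 0.0018. At an unadjusted edgeR p under 0.05, 1 was higher and 3 were lower (2.63% and 2.02% over all genes tested). That median was 0.26 without the granulosa-high libraries, 2.76 in gilts 201 and 205 alone and -1.06 with no gilt in the model. Their summed level was highest in 3 oocytes: gilt 803 oocytes 1 and 3 of stage 2, at 1011 and 15565 CPM, and gilt 803 oocyte 1 of stage 3, at 1313 CPM.

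Among genes lower at stage 3 in every gilt, some were high in 1 or 2 libraries of stage 2. TNFAIP1, an adaptor of a cullin ubiquitin ligase, was at 0.0649, 8.21, 0.751 and 72.7 CPM at stage 2 and 0, 0, 0 and 0.0798 CPM at stage 3, from 2262 and 7 counts; its log2 change was -9.32 ± 2.40 (edgeR unadjusted p = 0.000628), or -5.75 ± 3.02 without the granulosa-high libraries. Of its oocyte values, 297 CPM in the granulosa-high oocyte of stage 2 was the highest. C1QB, a chain of complement C1q that macrophages make, was at 14.7, 0.483, 0.581 and 227 CPM and 0, 0.315, 0 and 0 CPM. It reached 3236 CPM in gilt 803 oocyte 3, the oocyte with the highest immune marker level, and its change of -7.19 ± 2.32 was -9.10 ± 2.72 without the granulosa-high libraries and -2.37 ± 2.74 in gilts 201 and 205 alone. CD83, a surface protein of activated immune cells, was 21 ± 28.9 CPM at stage 2 and 2.7 ± 5.2 CPM at stage 3, a change of -4.26 ± 1.64, or -5.19 ± 1.99 without the granulosa-high libraries. The part of immune-cell RNA in the C1QB and CD83 values was not tested.

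The other genes with lower levels were spread more evenly over the animals. NUP205, a scaffold protein of the inner ring of the nuclear pore, was at 21.6, 55.2, 15.3 and 24.3 CPM at stage 2 in gilts 201, 205, 801 and 803 and 0.769, 12.5, 1.58 and 4.36 CPM at stage 3. No stage 3 level reached the lowest of stage 2; the change was -2.84 ± 0.93 with all oocytes and -1.57 ± 1.44 without the granulosa-high libraries. RIGI, a cytosolic sensor of viral RNA, was at 38, 20.5, 30.4 and 33.7 CPM and 0.922, 3.36, 7.84 and 12.3 CPM, again without overlap (-2.44 ± 0.90, or -2.33 ± 1.35 without those libraries). ZWILCH, a part of the kinetochore complex that recruits dynein and checkpoint proteins, was at 9.22, 27.7, 24.1 and 16.1 CPM and 0.845, 3, 8.93 and 2.29 CPM. Its levels did not overlap either, with a change of -2.64 ± 1.02, or -3.03 ± 1.38. Yet in single oocytes ZWILCH ran from 0 to 419 CPM with a median of 6.78 at stage 2 and from 0 to 16.2 CPM with a median of 1.11 at stage 3, and was found in 7 of 12 and 8 of 11. BACH1, a haem-regulated repressor of oxidative stress genes, was at 30.4, 33.1, 15.1 and 66.6 CPM and 14.2, 4.15, 2.11 and 17.7 CPM (-2.20 ± 0.83, or -3.24 ± 1.30). JMJD4, a hydroxylase of a translation release factor, APBB2, an adaptor that binds the amyloid precursor protein, and LMF1, which lipases need to mature, had changes of -3.08 ± 1.14, -2.78 ± 1.04 and -2.34 ± 0.88, all without overlap. Without the granulosa-high libraries these were -1.88 ± 1.84, -2.58 ± 1.68 and -2.67 ± 1.38.

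The genes that define the oocyte did not move in one direction. Of the zona and growth factor genes, 5 of 9 were fitted higher at stage 3, with a median of 0.03. ZP3, a zona protein, was at 27318, 13674, 4155 and 77.9 CPM at stage 2 in gilts 201, 205, 801 and 803 and 17662, 41867, 5728 and 759.7 CPM at stage 3. Gilt 201 was lower at stage 3 and the other gilts higher, and gilt 803 was far below the rest at both stages; the log2 change was 0.79 ± 0.93. ZP2 and ZP4 had changes of 1.24 ± 1.06 and 0.81 ± 0.96. Without the granulosa-high libraries, whose zona counts were low apart from gilt 801, the changes were 2.1 ± 0.86 for ZP2 (edgeR unadjusted p = 0.0181, adjusted p = 1), 1.57 ± 0.74 for ZP3 and 1.80 ± 0.79 for ZP4. GDF9 was 2867 ± 2603 CPM at stage 2 and 2862 ± 3136 CPM at stage 3 (SD, n = 4; log2 change 0.03 ± 0.77, edgeR adjusted p = 1), higher in 2 gilts and lower in 2. BMP15 was 1015 ± 1263 CPM at stage 2 and 409.9 ± 456 CPM at stage 3, a change of -0.86 ± 1.06, and the stage 2 mean rested on gilt 205 at 2892 CPM from 1 oocyte.

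KIT, the receptor through which the oocyte receives KIT ligand from granulosa cells, was the oocyte-regulator list's only member with an unadjusted p under 0.05. It was at 47.4, 56.4, 40.5 and 169 CPM at stage 2 and 67.2, 347, 227 and 581 CPM at stage 3 in gilts 201, 205, 801 and 803. Each gilt was higher at stage 3, though the groups overlapped, and the change was 2.06 ± 0.77 (edgeR unadjusted p = 0.0124), or 0.93 ± 0.98 without the granulosa-high libraries. In the granulosa-high oocytes of stage 3 KIT ran from 4.56 to 1737 CPM, and in that of stage 2 it was at 679 CPM. The 11 other oocytes of stage 2 had a median of 24.0 CPM, and the 7 others of stage 3 a median of 8.26 CPM. Maternal-effect genes, whose products the embryo needs, were higher in 4 of 9, with a median of -0.08; PADI6 of the cytoplasmic lattices and KPNA7, an oocyte importin, had changes of -0.47 ± 0.67 and -0.39 ± 0.65. DNMT1, the maintenance DNA methyltransferase, was at 2756, 2538, 3596 and 877 CPM and 11338, 1698, 1443 and 1049.9 CPM. Gilts 201 and 803 were higher at stage 3 and gilts 205 and 801 lower, and the change was 0.62 ± 0.84. DNMT3A, which sets new methylation in growing oocytes, was 77.8 ± 39.5 CPM at stage 2 and 59.6 ± 18.5 CPM at stage 3 (-0.37 ± 0.70). Across the DNA methylation and demethylation list 14 of 20 were higher, with a median of 0.55, or 0.87 without the granulosa-high libraries. Histone-modifying enzymes were higher in 25 of 41 (54.9% over all genes tested), and SUZ12, a core subunit of Polycomb complex 2, had 2.20 ± 1.15, or 3.01 ± 1.88. The histone variants H2AZ1 and H2AZ2 had 1.91 ± 0.74 and 2.30 ± 0.86, which were -0.15 ± 1.03 and 0.99 ± 1.34 without those libraries.

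Genes of meiosis gave small changes of both signs. Of the regulators of maturation-promoting factor, the cyclin B and CDK1 kinase that restarts meiosis, 11 of 21 were higher, with a median of 0.04. CCNB1 (cyclin B1) was 187 ± 101 CPM at stage 2 and 172 ± 131 CPM at stage 3 (SD, n = 4; -0.08 ± 0.68), and MOS, the kinase that holds the egg in metaphase, was 410.4 ± 217 CPM at stage 2 and 379 ± 229 CPM at stage 3 (0.09 ± 0.74). FBXO5, an inhibitor of the anaphase-promoting complex, was at 121, 44.9, 75.8 and 29.6 CPM at stage 2 and 59.6, 26.6, 51.8 and 10.4 CPM at stage 3. Every gilt was lower at stage 3, within overlapping ranges, with a change of -0.93 ± 0.68. BUB1B, a spindle checkpoint kinase, and MASTL, which keeps a phosphatase off at meiotic entry, had -0.98 ± 0.67 and -0.92 ± 0.75. Spindle, kinetochore and checkpoint genes were higher in 15 of 36, with a median of -0.22, and ranged from SGO2, a protector of centromeric cohesin, at -1.75 ± 1.02 to CENPF, a kinetochore protein, at 1.77 ± 1.2 among those of at least 10 CPM with the smallest p. Meiotic cohesin and recombination genes had a median of -0.31, nuclear pore and lamina genes -0.29 and the genes of cAMP-held arrest 0.44. None of these lists had over 1 member at an unadjusted p under 0.05 in either direction. Maternal mRNA storage genes were higher in 13 of 27; YBX1, which packages stored mRNA, had 1.21 ± 0.70, or 0.53 ± 0.98 without the granulosa-high libraries. In mRNA decay 24 of 35 were higher, against 54.9% of all genes tested. TOB1, which recruits the deadenylase, had 1.92 ± 0.86, or 0.40 ± 1.28 without those libraries. PARN, a deadenylase of maternal mRNA in the frog oocyte, had -1.88 ± 0.96, or -1.45 ± 1.27.

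**Figure D4:**
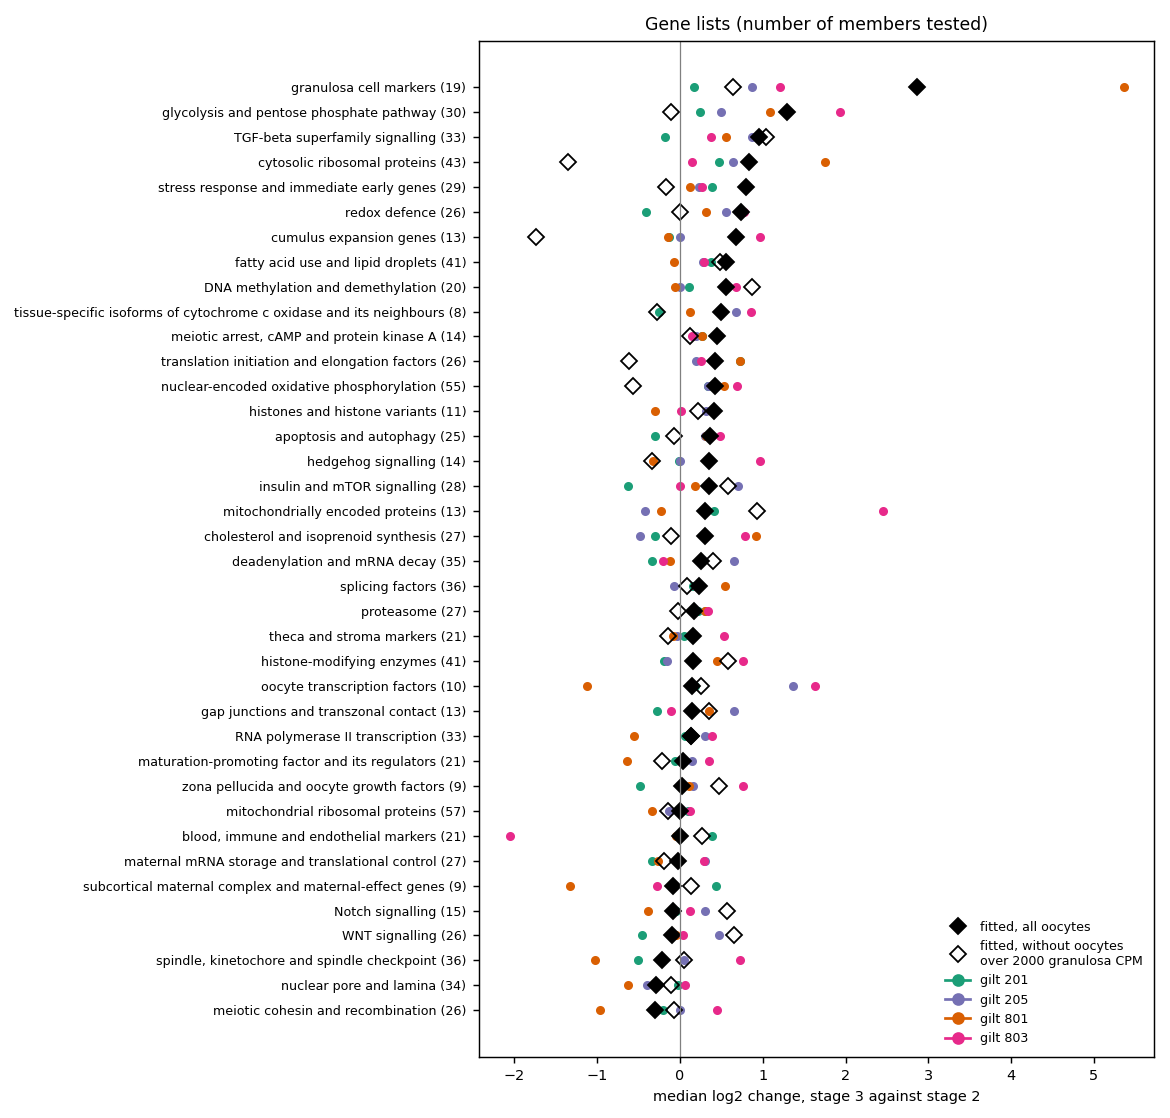
Median log2 change from stage 2 to stage 3 (x axis) of the tested members of each gene list (y axis, number tested in brackets): filled diamonds are the fit with all oocytes, open diamonds the fit without the 5 oocytes over 2000 granulosa CPM, and coloured points the medians within single gilts. Granulosa markers (2.87) and glycolysis (1.29) lie furthest to the right; cytosolic ribosomal proteins move from 0.84 to -1.36 and glycolysis to -0.10 in the open diamonds, while the TGF-beta list is at 0.96 and 1.04.

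Ribosomal protein genes were mostly fitted higher with all oocytes and mostly lower without the granulosa-high libraries. Of 43 tested genes of the cytosolic ribosome, 41 were fitted higher at stage 3 with all oocytes, 22 of them in each of the 4 gilts, and the median was 0.84. Over all genes tested, 54.9% were fitted higher and 5.25% were higher in each of the 4 gilts. Without the granulosa-high libraries 2 of 43 were higher and the median was -1.36. RPS3A was at 42.6, 24.6, 15.5 and 367 CPM at stage 2 and 56.1, 55.1, 202 and 687 CPM at stage 3 (1.63 ± 0.78, or -1.38 ± 1.22), and RPS9 had 1.61 ± 0.73, or -0.29 ± 1.32; processed pseudogenes are common for this family and the sources used here do not say how shared reads were handled. Translation factors were higher in 21 of 26, with a median of 0.43 that became -0.62. EIF2S1, the alpha subunit of initiation factor 2, stood apart from that turn at 2.29 ± 1.08, or 2.83 ± 1.45 without those libraries. In gilts 201 and 205 alone, which have no granulosa-high library, the ribosomal median was 0.42 and that of translation factors 0.21. Among the 18 other oocytes, RPS3A at stage 2 reached 1542 CPM, in gilt 803, whereas the 7 of stage 3 reached at most 53.7 CPM.

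Nuclear genes of oxidative phosphorylation were higher in 45 of 55 tested (54.9% over all genes tested), with a median of 0.42, or -0.56 without the granulosa-high libraries. Apart from SDHD, the members with the smallest p were NDUFA5 and NDUFV1 of complex I, at 2.15 ± 0.93 and 2.87 ± 1.33, which were 0.94 ± 1.62 and -0.46 ± 4.81 without those libraries. The 13 mitochondrially encoded mRNAs were all fitted higher on the TMM scale, 0 of them at an unadjusted edgeR p under 0.05. Their median was 0.30, and within gilts it ran from -0.419 in gilt 205 to 2.45 in gilt 803. COX1 had 0.21 ± 1.07. As a share of counts, these mRNAs were lower at stage 3 in 2 of 4 gilts, at 61.1 ± 34.5% at stage 2 and 59.3 ± 26.2% at stage 3 (SD). Redox genes were higher in 23 of 26 (median 0.74, or 0.01). NQO1, a quinone reductase, had 4.42 ± 1.55, or 4.59 ± 2.98, and GSTM3, a glutathione transferase, was at 343, 177, 165 and 31.6 CPM at stage 2 and 18.3, 212, 70.8 and 13.3 CPM at stage 3. GSTM3 was lower in 3 of 4 gilts (-1.43 ± 0.76). Stress and immediate early genes were higher in 24 of 29 (median 0.80, or -0.16). DDIT4, an mTOR inhibitor induced by hypoxia, was 31.2 ± 56 CPM at stage 2 and 384 ± 595 CPM at stage 3, a change of 4.22 ± 1.16 that was -0.65 ± 1.95 without those libraries, and GADD45B, a stress-induced gene, had 4.81 ± 1.68, or 3.42 ± 2.21.

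The TGF-beta superfamily, which carries the signals between oocyte and granulosa, had a similar median in both sets of libraries. With all oocytes 26 of 33 tested members were higher, 6 at an unadjusted edgeR p under 0.05 and 1 lower, with a median of 0.96. The shares over all genes tested were 54.9% fitted higher, 2.63% higher at that p and 2.02% lower. Without the granulosa-high libraries 23 of 33 were higher, 2 at that level, with a median of 1.04. Over the alternatives run the median ran from 0.34 to 1.30. INHA and INHBA, given above, belong to this list too; ID2, a transcriptional target of BMP signalling, was at 1.88, 0, 2.45 and 119 CPM and 0.922, 41.4, 352 and 259 CPM. It was higher in 3 gilts and lower in gilt 201 (4.82 ± 1.72, or 2.84 ± 3.32). Within single gilts the median of the list was -0.176 in gilt 201, 0.871 in gilt 205, 0.562 in gilt 801 and 0.373 in gilt 803.

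Cholesterol synthesis, which oocytes of the mouse leave largely to their cumulus cells, was higher in 16 of 27 genes (54.9% over all genes tested). Its median was 0.30, and -0.11 without the granulosa-high libraries. SCAP, the escort of the sterol-sensing transcription factor SREBP, was at 29.6, 12.1, 11.1 and 10.1 CPM at stage 2 in gilts 201, 205, 801 and 803 and at 51.7, 51.7, 60.1 and 11 CPM at stage 3. Each gilt was higher at stage 3, with gilt 803 nearly level, and the change was 1.5 ± 0.82, or 1.81 ± 1.12 without those libraries. Fatty acid and lipid droplet genes were higher in 28 of 41, with a median of 0.55 or 0.48; besides ACSBG1 they held HADHB, a subunit of the mitochondrial trifunctional protein, at 1.81 ± 0.91, or 1.36 ± 1.60 without those libraries, and ACSL4, an acyl-CoA synthetase for arachidonate, at 2.05 ± 1.03, or 0.48 ± 1.53. The highest ACSL4 value of an oocyte, 2908 CPM, was in a granulosa-high library. The gap junction gene GJA1 (connexin 43 of granulosa cells) was at 12.1, 3.14, 2.38 and 1040.3 CPM and 4.46, 51.4, 123 and 726 CPM, and so higher in 2 gilts and lower in 2 (2.31 ± 1.12, or 0.40 ± 2.22 without the granulosa-high libraries, and -0.22 with no gilt in the model).

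**Figure D5:**
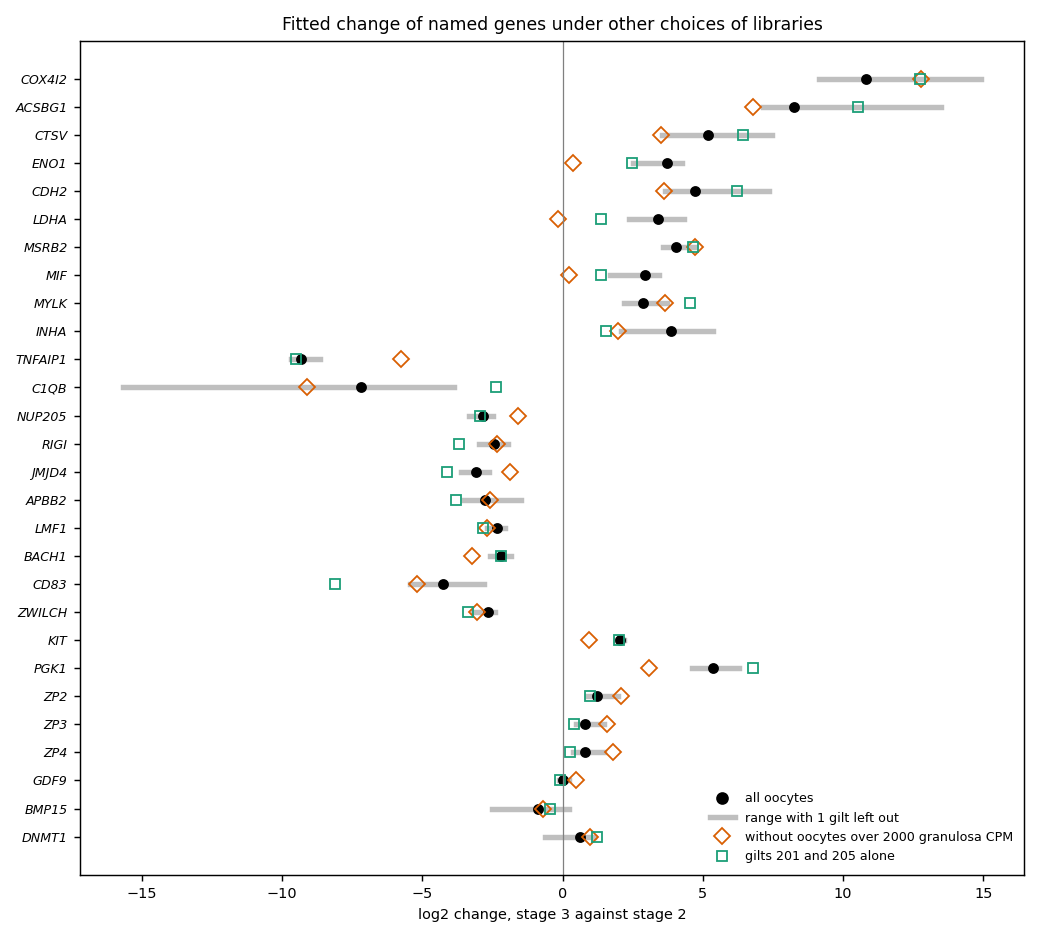
Fitted log2 change from stage 2 to stage 3 (x axis) of named genes (y axis): black points use all oocytes, grey bars span the 4 fits with 1 gilt left out, orange diamonds leave out the 5 oocytes over 2000 granulosa CPM and green squares use gilts 201 and 205 alone. COX4I2, MSRB2 and MYLK have all marks at the right of 0 and a diamond at or above the point (12.77, 4.72 and 3.66), while the diamonds of ENO1 (0.36), LDHA (-0.17) and MIF (0.23) lie near 0 and their squares at 2.49, 1.38 and 1.35.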

How the data were processed

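Gene counts of single pig oocytes were analysed from the deposited table of raw counts per Ensembl gene ID. Per the submitters' processing notes, the authors used HISAT2 2.1.0, StringTie 1.2.2, Trim Galore 0.4.3 and featureCounts. The genome build, the annotation and any strand setting were not given in the sources used, so no positions are stated and antisense reads cannot be told apart. Another deposited table carries the name TPM though its column sums differ; the scale of its length-scaled values is unknown. It served as an alternative over 23498 genes, since its final line stops after 21 of the 55 values. Of 25880 IDs, 14857 had a symbol.

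Counts were summed per gilt and stage (19 sums of 5 stages, 8 of them of stages 2 and 3) and tested in R 4.3.3 with edgeR 4.0.16 (TMM, filterByExpr by stage, glmQLFit and glmQLFTest, stage and gilt in the model, two-sided). All 5 stages entered the fit to share one estimate of the spread. TMM factors ran from 0.270 to 2.85, so mitochondrial levels are given as shares, while their fitted changes are on the TMM scale. DESeq2 1.42.0 and limma 3.58.1 were alternatives. Changes are log2 ± SE, levels are CPM (TMM-scaled for sums, unscaled for single oocytes). The SE of an edgeR change was not estimated by the fit itself. It was worked back as the size of the change divided by the square root of the test's F statistic. Such an SE is approximate, above all for changes near 0 or with 0 counts in some gilts. The test was run on simulated data with the spread of these data and with a much lower spread. A limit on the recovery of set changes was applied only at the lower spread. That check therefore does not show how many real changes the test could find here. The labels name the animals, so the gilt is a block in the model; deviations of the same gilt at both stages correlated at 0.187, 0.210, 0.0126 and 0.609 (gilts 201, 205, 801 and 803; 5847 genes). The floors cover counting error only, as PCR copies cannot be counted as separate molecules here. Values after ± are SDs over gilts or SEs of changes.

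Named genes were the 10 higher and 10 lower with the smallest p among those with a symbol, at least 10 CPM and 1 direction in 4 gilts, the 5 smallest p at any level, up to 3 members per list of at least 10 CPM, and 9 oocyte genes always; any other gene was picked with its values in view. The 38 gene lists are described by counts and medians, with no set test. The comparison, the lists and the naming rule were chosen with earlier results of these data known.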

Additional observations from a re-analysis of the deposited data

Results flagged for a closer look

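Within a stage, 9 values of 1 gilt stood far from those of the other 3, out of 48 groups of 4 gilts looked at; the limit used is set so that chance flags about 1 in 20 groups of normally spread values, and its rate was not measured for these genes, most of which were picked for a small p, some with values at 0 counts. The log10 total of stage 2 was lowest in gilt 803, at 6.09, the animal with 3 shallow libraries. On the log2(CPM + 0.5) scale, 3 genes higher at stage 3 had a single high gilt 803 at stage 2: COX4I2 at 2.01, CTSV at 6.82 and CDH2 at 6.67. ACSBG1 at stage 2 was highest in gilt 801, at 0.25, the other gilts being at 0 counts, and INHA at stage 2 was lowest in gilt 801, at 1.93. Among genes lower at stage 3, the highest stage 3 level was that of gilt 803 for TNFAIP1, at -0.79, and for CD83, at 3.46, and that of gilt 205 for C1QB, at -0.29. The TNFAIP1 and C1QB levels of stage 3 rest on 7 and 6 counts in all. The gilt 803 values of CTSV and CDH2 at stage 2 go with its granulosa-high oocyte 2, which held 454 and 419.9 CPM of them; the part of that library in the flags was not tested.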

How the results depend on the processing

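The count of genes called by edgeR was 0 with RLE factors, no replicate block (987 genes at an unadjusted p under 0.05), only the sums of stages 2 and 3, each oocyte as a library, equal weight per oocyte, no mitochondrial genes, and without granulosa-rich, shallow or granulosa-high libraries; it was 0 in the length-scaled table too. The count was 311 with DESeq2, 2 with limma-trend, 29 with no low-count filter, 5 without gilts 801 and 803, and 0 to 7 with 1 gilt left out. The cause of these differences was not tested. Leaving out the shallow libraries, the granulosa-high libraries, or gilts 801 and 803 was chosen after seeing the data. The mean difference in granulosa marker level kept its sign in all alternatives run, at 1.32 to 3.55 with 1 gilt left out. Without granulosa-rich libraries it was 1.82 (exact permutation p = 0.375), and gilt 803 was then lower at stage 3. Its oocyte 4 of stage 3 held 111 CPM, and its oocytes 1, 3 and 4 of stage 2 held 191, 315 and 146 CPM.

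The mitochondrial share differed by -8.37 to 4.41 percentage points with 1 gilt left out (0.0454 without gilt 205) and by 8.03 without granulosa-rich libraries. Genes at equal depth differed by -245 to 1259 (-46.7 without gilt 803) and the log10 total by -0.0295 to 0.321. Without the granulosa-high oocytes the log2 change turned to -0.17 for LDHA, -0.29 for RPS9, -1.38 for RPS3A, -0.46 for NDUFV1, -0.51 for COX4I1 (-0.12 without granulosa-rich libraries), -0.15 for H2AZ1, -0.024 for INHBA and -0.65 for DDIT4. With no replicate block, that is without the paired design, GJA1 turned to -0.22, MOS to -0.11 and GDF9 to -0.0022. C1QC, a complement gene, turned to 1.96 without the shallow oocytes (the 3 of gilt 803 at stage 2).

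Near-zero changes flipped with many choices. With 1 gilt left out, MOS ran from -0.19 to 0.24 (-0.05 without gilt 803), BMP15 from -2.50 to 0.22, DNMT1 from -0.61 to 1.11, GDF9 from -0.12 to 0.25 (-0.11 without gilt 803), COX1 from -0.20 to 0.66 and CCNB1 from -0.79 to 0.26 (0.21 without gilt 801). MOS was -0.023 with limma-trend, -0.083 with stages 2 and 3 only, -0.0032 without gilts 801 and 803 and -0.24 in the length-scaled table. GDF9 was -0.011 with RLE factors and with DESeq2, -0.0084 with no filter, -0.016 with stages 2 and 3 only, -0.40 with each oocyte as a library, -0.30 with equal weights, -0.11 without gilts 801 and 803 and -0.28 in the length-scaled table, where DNMT1 was -0.28. COX1 was -0.32 without gilts 801 and 803. CCNB1 was 0.43 and DNMT3A 0.038 with equal weights, and CCNB1 0.087 without shallow libraries and 0.19 without gilts 801 and 803.

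Depth limits the low genes most: gilt 803 at stage 2 rests on 4 libraries, one of 151104 counts, and gilts 205 (stage 2) and 801 (stage 3) rest on 1 oocyte each.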

Other observations

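Over all genes, the median log2 difference came to 0.17 using every oocyte and to 0.16 without the granulosa-high libraries. The remaining gene lists are each given by the members fitted higher at stage 3, with the median log2 change in both sets of libraries in brackets. The share fitted higher over all genes tested was 54.9%. Notch genes were higher in 7 of 15 (-0.08, or 0.56), WNT genes in 12 of 26 (-0.09, or 0.65) and hedgehog genes in 9 of 14 (0.35, or -0.34). Insulin and mTOR genes were higher in 18 of 28 (0.35, or 0.58), apoptosis and autophagy genes in 17 of 25 (0.36, or -0.07) and gap junction and transzonal contact genes in 7 of 13 (0.14, or 0.35). Mitochondrial ribosomal proteins were higher in 29 of 57 (0.0042, or -0.15), splicing factors in 23 of 36 (0.22, or 0.08), RNA polymerase II transcription genes in 20 of 33 (0.13, or 0.14) and proteasome subunits in 18 of 27 (0.17, or -0.02). None of these lists had over 1 member at an unadjusted edgeR p under 0.05 in either direction, apart from the gap junction list with 2 members higher, CDH2 and GJA1.

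PSMC2, an ATPase of the proteasome cap, was 39.8 ± 24.3 CPM at stage 2 and 87.9 ± 69.6 CPM at stage 3 (SD, n = 4; log2 change 1.07 ± 0.62), and SF3B3, a splicing factor of the U2 complex, was 16.9 ± 7.51 CPM at stage 2 and 38.9 ± 26.2 CPM at stage 3 (1.40 ± 0.72). NUP98, a mobile nucleoporin, was at 51.9, 23.9, 14.9 and 15.4 CPM at stage 2 in gilts 201, 205, 801 and 803 and 15.3, 7.15, 1.81 and 4.69 CPM at stage 3. It was lower in each gilt, with overlapping ranges, and its change was -1.90 ± 1.02 (edgeR adjusted p = 0.995). ADCY3, an adenylyl cyclase of the rodent oocyte, had 1.10 ± 0.79 and was higher in 3 of 4 gilts. PGR, the progesterone receptor of the ovulating follicle, was at 0.844, 0, 8.57 and 0.451 CPM and 8.76, 5.99, 6.56 and 133 CPM, with its highest oocyte value of 414 CPM in a granulosa-high oocyte.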
